A study of Mus musculus with 12 samples.

Results

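The germ cell genes described here are 48 mouse genes, chosen by name, that mark or act in the steps from spermatogonial stem cell to sperm: the growth factor GDNF and its receptors, factors of undifferentiated and of differentiating spermatogonia, germline RNA-binding and bridge proteins, meiotic proteins, and proteins of late spermatocytes, spermatids and sperm. The rule is a list of names and uses no measured value, but the names were chosen with earlier results of these data known. Of the 48, 44 had a row among the 17576 genes of the expression table, and Sall4, Utf1, Sycp2 and Acrv1 were not analysed here. Spermatogonial stem cells divide under GDNF, which somatic cells of the testis secrete and which binds GFRA1 and the kinase RET on the germ cell. Their progeny lose the stem cell factors, gain KIT and STRA8, enter meiosis with the synaptonemal complex proteins, and finally replace histones by transition proteins and protamines.

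The cells were C18-4, a line derived from mouse type A spermatogonia, with the strain labelled IRC mouse in all groups, grown in DMEM/F12 with 10% fetal bovine serum and stably transfected with 1 of 4 constructs in lentiviral vectors, with 3 mRNA-seq libraries per construct. The group 3NC carried the LV3 vector with a control shRNA, and the knockdown group, labelled C18_5251KD and called KD here, the same vector with 3 mixed shRNAs against lncRNA5251. The group 5NC carried the LV5 vector without an insert, and the overexpression group, labelled C18_5251OV and called OV here, the LV5 vector with lncRNA5251. All 12 libraries thus come from transfected cells. No source says whether a group was 1 clone or a pool, or whether its libraries came from separate cultures, so p-values measure the spread between these libraries, which may be technical.

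Values are RPKM, reads scaled to transcript length and to the mapped reads of the library, and allow levels to be compared between genes. The sum over all genes was between 533099 and 580920 RPKM per library, and the rank correlation across genes between libraries of 1 group was 0.987 to 0.990. Read totals are not in the table. Low values lay in steps: in 330 genes that were above 0 in at most 8 libraries, 91.3% of 904 low values were within 15% of 1, 2 or 3 times the lowest value of their gene, and by these steps the relative depth of the libraries was between 0.977 and 1.02. lncRNA5251 itself was not analysed here. All 3 knockdown sequences lie in an annotated transcript of Purb, and Purb was at 8.79 to 10.25 RPKM in KD against 32.92 to 34.11 in 3NC, and at 23.94 to 33.25 RPKM in OV against 29.18 to 32.09 in 5NC, so it was not raised in OV. None of the 3 knockdown sequences, and not the control sequence, had an exact match on either strand of 171 annotated transcripts of the 48 germ cell genes.

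Promoters of germ cell genes are known for the E-box CACGTG, read by MAX and its partners, and for the site TCCCGC, read by E2F factors such as E2F6. Both motifs were searched in the 250 bases before the start of each gene in the RefSeq promoter set (GRCm38.p6), TCCCGC on both strands (GCGGGA on the other one) and CACGTG once, since it reads the same on both. The 4 promoters below are shown because they belong to the germ cell gene with the highest level in these cells (Uchl1), to the meiotic gene that reached 1 RPKM in some libraries (Sycp1), and to genes that stayed under 1 RPKM and carry the E-box (Sycp3 and Ddx4), with matches to either motif in capitals.
Uchl1, chr5:66675871-66676120, plus strand: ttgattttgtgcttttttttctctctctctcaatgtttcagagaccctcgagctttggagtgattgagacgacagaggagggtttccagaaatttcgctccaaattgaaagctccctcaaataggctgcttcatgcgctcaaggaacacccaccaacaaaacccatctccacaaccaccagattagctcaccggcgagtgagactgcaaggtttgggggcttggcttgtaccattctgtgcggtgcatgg
Sycp1, chr3:102936101-102936350, minus strand: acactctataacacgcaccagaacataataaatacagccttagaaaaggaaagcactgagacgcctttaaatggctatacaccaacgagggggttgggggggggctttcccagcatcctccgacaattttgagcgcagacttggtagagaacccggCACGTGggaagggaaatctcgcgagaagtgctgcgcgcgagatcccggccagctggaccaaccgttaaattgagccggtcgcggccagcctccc
Sycp3, chr10:88459337-88459586, plus strand: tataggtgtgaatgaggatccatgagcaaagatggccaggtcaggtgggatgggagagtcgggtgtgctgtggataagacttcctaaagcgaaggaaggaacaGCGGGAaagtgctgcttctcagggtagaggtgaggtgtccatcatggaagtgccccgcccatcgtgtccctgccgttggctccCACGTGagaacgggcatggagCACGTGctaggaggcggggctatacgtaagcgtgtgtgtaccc
Ddx4, chr13:112652311-112652560, minus strand: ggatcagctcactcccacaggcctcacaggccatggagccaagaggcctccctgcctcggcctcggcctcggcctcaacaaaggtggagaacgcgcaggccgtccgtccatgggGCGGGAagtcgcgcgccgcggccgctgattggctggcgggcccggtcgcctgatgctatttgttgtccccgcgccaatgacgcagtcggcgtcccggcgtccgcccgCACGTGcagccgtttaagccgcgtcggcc
The Uchl1 promoter held neither motif and 7 CpG. The Sycp1 promoter held 1 CACGTG and 17 CpG, the Sycp3 promoter 2 CACGTG, 1 TCCCGC and 12 CpG, and the Ddx4 promoter 1 of each motif and 31 CpG. Among germ cell genes that reached 1 RPKM in at least 3 libraries, CACGTG was in 1 of 6 promoters found (16.7%, Sycp1) and TCCCGC in 1 of 6 (Odf2). Among those under this level, CACGTG was in 5 of 29 (17.2%; Sohlh1, Ddx4, Mael, Piwil1 and Sycp3) and TCCCGC in 8 of 29 (27.6%; Pax7, Kit, Ddx4, Mael, Tex14, Sycp3, Dmc1 and Rec8). Over all 27025 genes with a promoter the shares were 6.86% and 18.8%. The median number of CpG was 18.5 in the 6 promoters, 11 in the 29 and 6.0 over all genes. These matches describe letters in a window and say nothing about binding in these cells.

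Most germ cell genes were barely detected in C18-4 cells. A level of 1 RPKM or more in at least 3 of the 12 libraries was reached by 8 of the 44 genes with a row (18.2%), against 11435 of 17576 genes in the whole table (65.1%). The 8 were Nanos1, Uchl1, Taf4b, Foxo1 and Eomes of the undifferentiated spermatogonia group, Piwil2 of the germline RNA proteins, Sycp1 of meiosis and Odf2 of the sperm tail. A further 27 were above 0 in some library but under this level, and 9 were listed at 0 in all 12 libraries (20.5%, against 568 genes or 3.23% of the table). In all, 34 of the 44 stayed under 0.5 RPKM in every library. Housekeeping genes were well above 0, with the TATA-box binding protein gene Tbp at 25.08 to 32.1 RPKM.

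**Figure D1:**
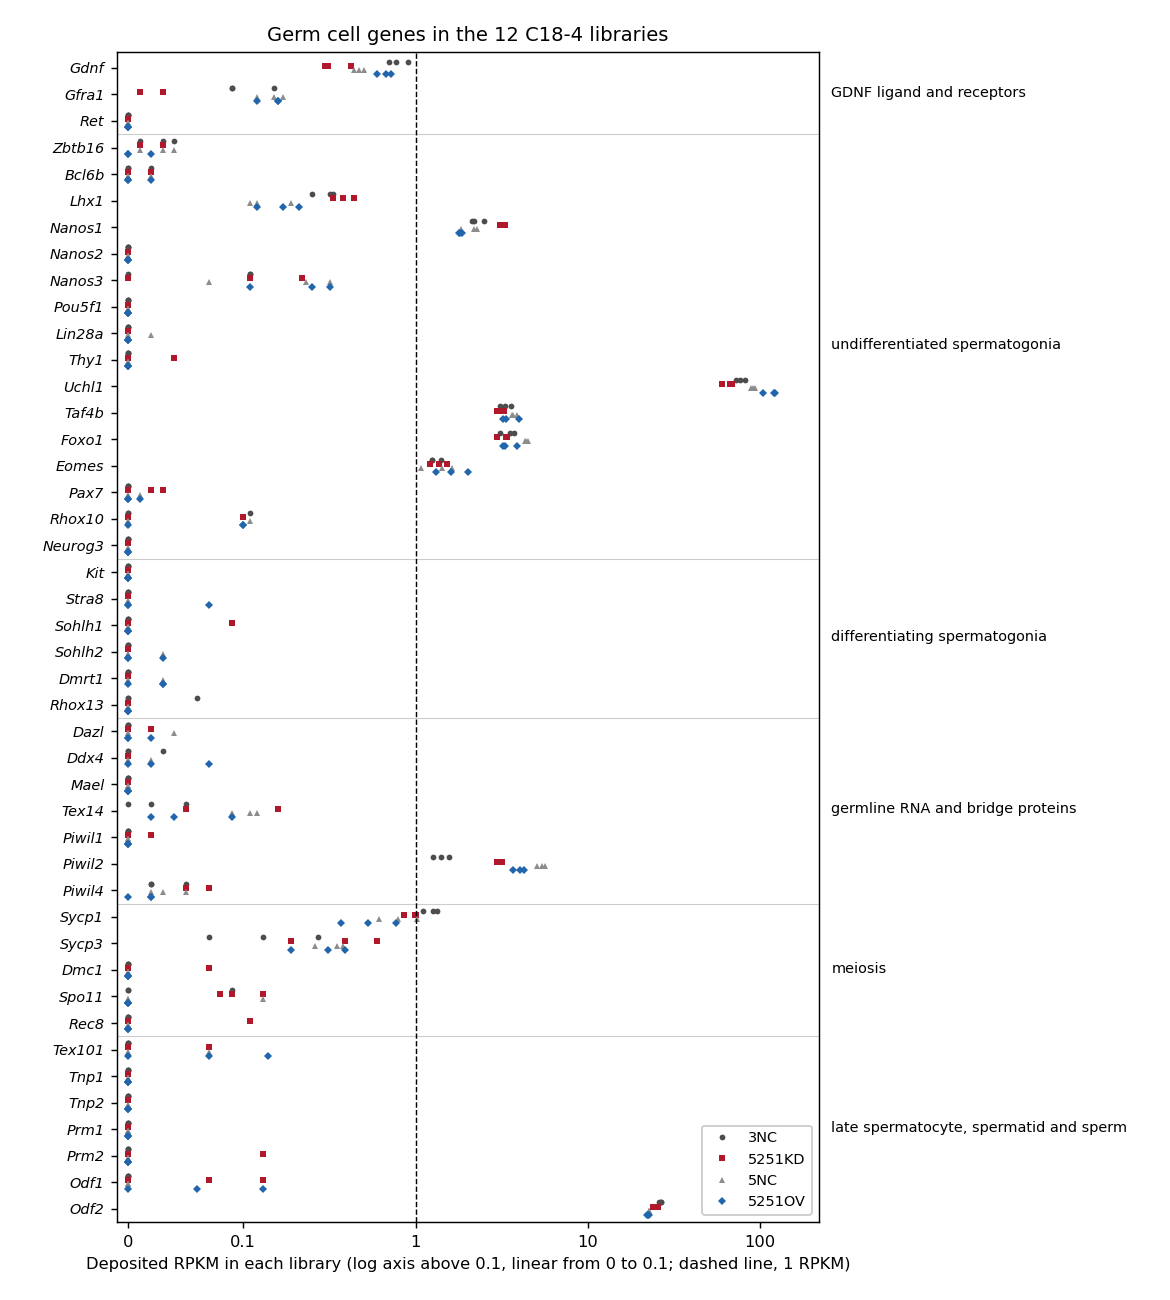
Deposited RPKM of the 44 germ cell genes with a row in each of the 12 libraries, by stage (x axis, log above 0.1 RPKM and linear below it; symbols, the 4 groups; dashed line, 1 RPKM). Uchl1 and Odf2 lie above 10 RPKM in every library, 6 other genes reach 1.33 to 5.67 RPKM, and the remaining 36 lie to the left of the line.

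The ligand and its receptors come first. Gdnf, the ligand, was above 0 in every library but reached at most 0.9 RPKM. Gfra1, its co-receptor, reached at most 0.17 RPKM, and Ret, the signalling kinase, was listed at 0 in all 12 libraries. Of the other genes of the GDNF-RET pathway, the related co-receptor gene Gfra4 and the ligand genes Artn and Pspn reached at most 0.06, 0.04 and 0.74 RPKM, Cxcr4 at most 0.08 RPKM, and Dok5 was listed at 0. The remaining 23 of 28 with a row reached 1 RPKM in at least 3 libraries, among them the adaptor Grb2 (58.67 to 86.3 RPKM) and the kinase Akt1 (77.54 to 121.56 RPKM).

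Of the 16 undifferentiated spermatogonia genes with a row, 5 reached 1 RPKM, 8 were above 0 and under it, and 3 were listed at 0. Listed at 0 were Nanos2, an RNA-binding protein that keeps stem cells undifferentiated, Pou5f1, which encodes the pluripotency factor OCT4, and Neurog3, a helix-loop-helix factor of progenitors. Zbtb16, which encodes the repressor PLZF, was above 0 in 10 libraries and reached at most 0.04 RPKM. Thy1, the surface protein used to enrich stem cells, was above 0 in 1 library, at 0.04 RPKM. The highest of this group under 1 RPKM were Lhx1, a GDNF-responsive homeobox factor, at up to 0.44 RPKM, and Nanos3, a relative of Nanos2, at up to 0.32 RPKM. Rhox10 reached 0.11 RPKM, Pax7 0.03 RPKM, and Bcl6b and Lin28a 0.02 RPKM each.

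No gene of the differentiating spermatogonia group reached 1 RPKM. Kit, the receptor of stem cell factor, was listed at 0 in all libraries. Stra8, the retinoic acid target needed for meiotic entry, was above 0 in 1 library at 0.07 RPKM. Sohlh1 (0.09 RPKM) and Rhox13 (0.06 RPKM) were also above 0 in 1 library each, Sohlh2 reached 0.03 RPKM in 2 libraries and Dmrt1 0.03 RPKM in 3.

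Among the germline RNA and bridge proteins, Ddx4, the VASA helicase found in nearly all germ cells, was above 0 in 4 libraries and reached 0.07 RPKM. Dazl, an RNA-binding protein of the germline, was above 0 in 3 libraries and reached 0.04 RPKM. Tex14, needed for intercellular bridges, reached 0.16 RPKM, the PIWI proteins Piwil4 and Piwil1 reached 0.07 and 0.02 RPKM, and Mael was listed at 0. Piwil2 was the only gene of the 7 at 1 RPKM or more.

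Of 5 meiotic genes with a row, Sycp1 reached 1 RPKM in 5 libraries and Sycp3 at most 0.6 RPKM. Spo11, which makes the meiotic DNA breaks, reached 0.13 RPKM, the cohesin subunit gene Rec8 0.11 RPKM in 1 library and the recombinase gene Dmc1 0.07 RPKM in 1 library. In the late group, the transition protein genes Tnp1 and Tnp2 and the protamine gene Prm1 were listed at 0, Prm2 was at 0.13 RPKM in 1 library, Tex101 reached 0.14 RPKM and Odf1 0.13 RPKM. Odf2, which encodes an outer dense fibre protein that is also part of centrioles, was the exception at 22.02 to 26.48 RPKM.

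Read against the label of spermatogonial cells, the genes were thus mixed. The germline genes Ddx4 and Dazl, the stem cell repressor gene Zbtb16 and the receptor genes Gfra1 and Ret were at or near 0, while Uchl1, Nanos1, Taf4b, Foxo1 and Eomes were at 1 RPKM or more in every library. Of the other genes of spermatogonial surface and state, 15 of 19 reached 1 RPKM (78.9%), led by the integrin subunit gene Itgb1 and the tetraspanin gene Cd9, many of which other cell types also express. Smaller shares of the other germ cell lists did so: 6 of 23 genes of germ cell determination and the piRNA pathway, 8 of 23 other meiotic genes and 3 of 21 other spermatid and sperm genes reached 1 RPKM, with Tex19.1 (49.35 to 102.94 RPKM), Stag3 (53.18 to 87.23 RPKM) and Syce2 (40.52 to 57.38 RPKM) the highest of them. Markers of other cells of the testis were mixed. Of the Sertoli cell markers, 7 of 16 reached 1 RPKM, with Wt1 at 49.83 to 57.46 RPKM and Gata4 at 3.98 to 6.77 RPKM, but Sox9 reached 0.03 RPKM and Amh 0.15 RPKM. Of the fibroblast and mesenchymal markers, 10 of 13 reached 1 RPKM, led by Vim (520.13 to 632.69 RPKM) and including Col1a1 (249.15 to 436.81 RPKM), while Col1a2 reached 0.58 RPKM. Of the peritubular myoid and smooth muscle markers, 6 of 9 reached 1 RPKM, among them Tagln (45.47 to 66.99 RPKM) and Acta2 (8.16 to 23.1 RPKM), while Myh11, Lmod1 and Actg2 reached at most 0.07, 0.07 and 0.11 RPKM. Of the Leydig cell markers, 1 of 5 did, the cholesterol carrier gene Star (0.81 to 1.31 RPKM), while the steroidogenic enzyme genes Cyp11a1 and Cyp17a1 reached 0.02 and 0.04 RPKM, and none of 7 endothelial markers reached 1 RPKM. Fewer cells of a type and less RNA per cell cannot be told apart in these bulk libraries.

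**Figure D2:**
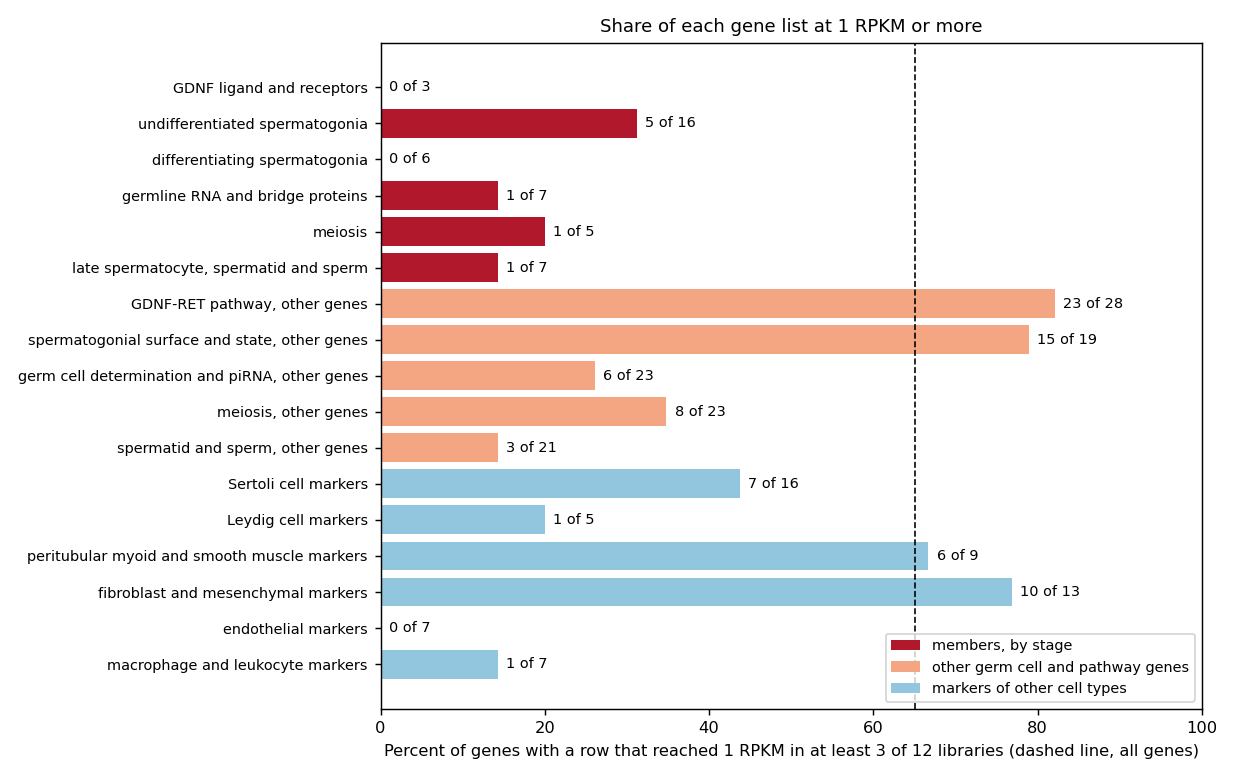
Percent of the genes with a row in each list that reached 1 RPKM in at least 3 of the 12 libraries (x axis; bars coloured by kind of list; counts beside the bars; dashed line, 65.1% of all genes). The 6 stages of germ cell genes lie at 0 to 31.2%, the other GDNF-RET pathway genes at 82.1% and the fibroblast and mesenchymal markers at 76.9%.

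The 8 genes at 1 RPKM or more are given by role with every library. Nanos1, a translational repressor related to Nanos2, was at 2.49, 2.12 and 2.19 RPKM in 3NC and at 3.31, 3.10 and 3.31 in KD. It was at 1.84, 2.28 and 2.19 RPKM in 5NC and at 1.81, 1.85 and 1.78 in OV. All KD libraries lay above the 9 others.

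Uchl1 encodes a ubiquitin hydrolase (PGP9.5) that marks spermatogonia in the testis and is also abundant in neurons. Its level was 73.0, 76.26 and 82.12 RPKM in 3NC and 66.56, 68.56 and 60.06 in KD. It was 93.12, 91.08 and 89.21 RPKM in 5NC and 120.2, 122.73 and 104.63 in OV. No 2 of the 4 groups overlapped, and the order from lowest was KD, 3NC, 5NC and OV. With a mean over the 12 libraries at the 94.0 percentile of all genes, Uchl1 was the germ cell gene with the highest level.

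Taf4b, a TFIID subunit needed to maintain spermatogonia, was at 3.58, 3.29 and 3.10 RPKM in 3NC and 2.98, 3.28 and 3.04 in KD. It was at 3.62, 3.90 and 3.69 RPKM in 5NC and 3.24, 3.36 and 4.00 in OV. Only 3NC and 5NC, and KD and 5NC, did not overlap.

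Foxo1, a forkhead factor that PI3K and AKT hold out of the nucleus, was at 3.10, 3.73 and 3.52 RPKM in 3NC and 3.39, 2.97 and 3.34 in KD. It was at 4.30, 4.51 and 4.37 RPKM in 5NC and 3.31, 3.22 and 3.86 in OV. The 5NC libraries were the 3 highest of the 12. Eomes, a T-box factor of a stem cell subset, was at 1.25, 1.25 and 1.41 RPKM in 3NC, 1.52, 1.36 and 1.21 in KD, 1.63, 1.42 and 1.08 in 5NC, and 2.01, 1.61 and 1.32 in OV. Every pair of groups compared overlapped in Eomes.

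Piwil2, a PIWI protein of the piRNA pathway that silences transposons in the germline, was at 1.40, 1.57 and 1.26 RPKM in 3NC and 3.07, 2.96 and 3.19 in KD. It was at 5.40, 5.67 and 5.09 RPKM in 5NC and 3.69, 4.03 and 4.29 in OV. The 4 groups were separate, in the order 3NC, KD, OV and 5NC from lowest to highest.

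Sycp1, the transverse filament of the synaptonemal complex, was at 1.10, 1.26 and 1.33 RPKM in 3NC and 1.01, 0.86 and 0.99 in KD. It was at 0.61, 0.79 and 1.02 RPKM in 5NC and 0.37, 0.53 and 0.77 in OV. It entered the tests through the 3NC libraries, where it was highest. Odf2 was at 25.86, 26.47 and 26.48 RPKM in 3NC, 24.04, 25.54 and 24.14 in KD, 22.65, 22.79 and 22.57 in 5NC, and 22.02, 22.58 and 22.44 in OV. Its LV3 libraries all lay above its LV5 libraries.

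**Figure D3:**
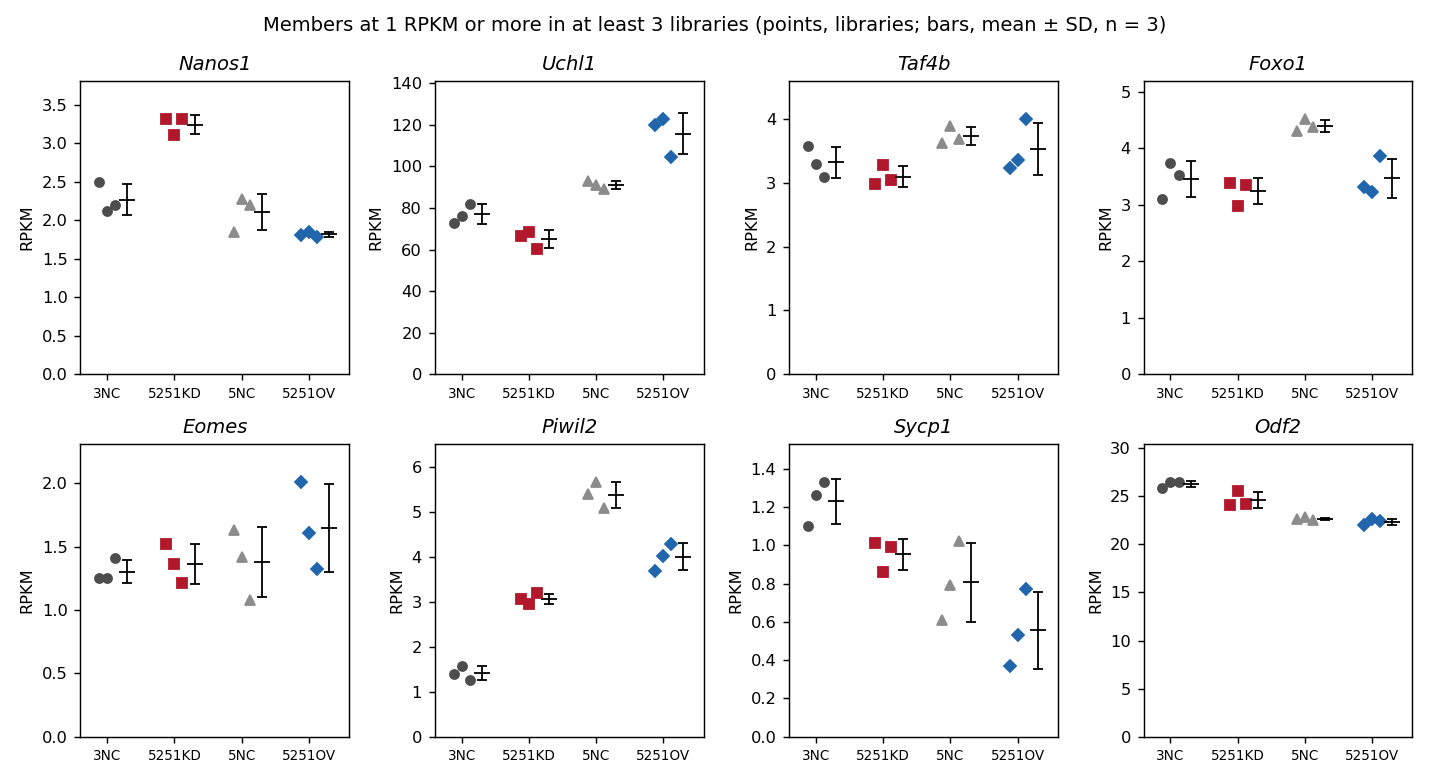
RPKM of the 8 germ cell genes at 1 RPKM or more in at least 3 libraries (y axis, from 0; points, libraries; bars, mean ± SD, n = 3 per group). The Piwil2 groups are separate from 1.26 to 1.57 RPKM in 3NC up to 5.09 to 5.67 RPKM in 5NC, and the Uchl1 groups are separate from 60.06 to 68.56 RPKM in KD up to 104.63 to 122.73 RPKM in OV.

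Knockdown against its vector control asks which germ cell genes differ when the shRNAs are present. Differences were fitted with limma on log2(RPKM + 1), which understates the change of low genes, and p-values were adjusted by Benjamini-Hochberg over the 11435 genes at 1 RPKM or more in at least 3 libraries. Nanos1 and Piwil2 rose, Uchl1 fell, and the other 5 did not pass an adjusted p of 0.05. Over all genes tested, 31.9% were higher and 23.5% lower in KD at this threshold, so 2 of 8 higher and 1 of 8 lower is no excess over the table. Piwil2 rose from 1.41 ± 0.155 to 3.07 ± 0.115 RPKM (mean ± SD, n = 3), a log2 difference of 0.76 (SE 0.08, adjusted p = 8.13e-07), or 2.18-fold in the means. Nanos1 rose from 2.27 ± 0.197 to 3.24 ± 0.121 RPKM, a log2 difference of 0.38 (SE 0.08, adjusted p = 0.000723). Uchl1 fell from 77.1 ± 4.62 to 65.1 ± 4.44 RPKM, a log2 difference of -0.24 (SE 0.07, adjusted p = 0.00525).

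The log2 differences of Taf4b (-0.08), Foxo1 (-0.07) and Eomes (0.04) had adjusted p-values of 0.425, 0.463 and 0.8, and the groups overlapped in each. Sycp1 (-0.19, adjusted p = 0.142) and Odf2 (-0.09, adjusted p = 0.0878) did not overlap between the groups but did not pass the threshold. Sycp1 entered the tests only through the 3NC libraries, so its separation is a description and supports no difference. Leaving out KD replicate 2 brought Odf2 to -0.12 with an adjusted p of 0.0496. Libraries did not overlap in 5 of 8 genes, Sycp1 included, against 62.8% of all genes tested. With 3 libraries against 3 the exact permutation test cannot go below 0.1, the value it gave for each of the 5. At the threshold the study used, which asks for an adjusted p no higher than 0.001 together with a log2 difference of 1 or more in size, none of the 8 passed by limma, against 1.57% of all genes. For Piwil2 this rests on the pseudocount of 1, since with 0.1 its log2 difference was 1.08 (adjusted p = 5.16e-07) and it passed. By limma with the pseudocount of 1, 3 of the 8 and 6910 of the 11435 genes had an unadjusted p under 0.05. The median log2 difference of the 8 was -0.07 and that of all genes tested 0.04.

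The choice of control changed the direction or the call of several of the 8 genes. How many of all genes passed against 5NC is not given here, so these calls cannot be read as particular to the 8. Against 5NC, which carries the other vector, Piwil2 in KD was lower, with a log2 difference of -0.65 (adjusted p = 2.47e-06), and Odf2 was higher at 0.11 (adjusted p = 0.0388). Foxo1 (-0.35, adjusted p = 0.00117) and Taf4b (-0.21, adjusted p = 0.0283), which did not pass against 3NC, were lower against 5NC. Sycp1 was at 0.12 against 5NC and did not pass with either control. Nanos1 (0.45, adjusted p = 0.000109) and Uchl1 (-0.48, adjusted p = 1.17e-05) kept their direction against 5NC, with the difference of Uchl1 larger than the -0.24 against 3NC.

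Overexpression against its own vector control gave smaller numbers of differences over the table: 8.07% of genes were higher and 13.9% lower in OV at an adjusted p of 0.05. Of the 8 germ cell genes, Uchl1 rose and Foxo1 and Piwil2 fell. Uchl1 rose from 91.1 ± 1.96 to 116 ± 9.8 RPKM, a log2 difference of 0.34 (SE 0.07, adjusted p = 0.00383). Piwil2 fell from 5.39 ± 0.29 to 4.00 ± 0.301 RPKM, a log2 difference of -0.35 (SE 0.08, adjusted p = 0.0063). Foxo1 fell from 4.39 ± 0.107 to 3.46 ± 0.346 RPKM, a log2 difference of -0.28 (SE 0.08, adjusted p = 0.0245). The Foxo1 call was close to the threshold: leaving out 1 library kept the log2 difference between -0.24 and -0.29 where the call was lost, with an adjusted p of 0.0903 without OV replicate 1, 0.105 without OV replicate 2, and 0.0504, 0.084 and 0.0648 without 5NC replicate 1, 2 and 3.

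Nanos1 (-0.14, adjusted p = 0.204), Taf4b (-0.07, adjusted p = 0.557), Eomes (0.15, adjusted p = 0.314), Sycp1 (-0.22, adjusted p = 0.154) and Odf2 (-0.02, adjusted p = 0.776) did not pass the threshold, and their groups overlapped. Without OV replicate 3, Sycp1 passed at -0.31 (adjusted p = 0.0356). Libraries did not overlap in 3 of 8 genes, against 36.7% of all genes tested. None of the 8 and 0 of all 11435 genes (0%) passed the threshold of the study by limma, while 3 of the 8 and 4240 of all genes had an unadjusted p under 0.05. The median log2 difference was -0.10 for the 8 and -0.03 for all genes.

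The vector controls differed from each other as well. In 5NC against 3NC, which shares its libraries with both comparisons above, 31.0% of all genes tested were higher and 25.6% lower in 5NC. Uchl1, Foxo1 and Piwil2 rose and Odf2 fell. Piwil2 was 3.82-fold higher in 5NC, a log2 difference of 1.41 (SE 0.08, adjusted p = 7.01e-10), and it alone of the 8 passed the threshold of the study, against 2.61% of all genes. The log2 difference was 0.24 for Uchl1 (adjusted p = 0.00563), 0.28 for Foxo1 (adjusted p = 0.00712) and -0.20 for Odf2 (adjusted p = 0.00117). Sycp1 was lower as well, at -0.31 (adjusted p = 0.0224), but it entered the tests only through the 3NC libraries, so its value is a description and supports no difference. Its log2 difference stayed between -0.23 and -0.31, and the adjusted p was above 0.05, without 3NC replicate 2 (adjusted p = 0.0585), 3NC replicate 3 (0.0742), 5NC replicate 1 (0.108) or 5NC replicate 2 (0.0528). Nanos1 (-0.08, adjusted p = 0.426), Taf4b (0.13, adjusted p = 0.159) and Eomes (0.04, adjusted p = 0.771) did not pass. Libraries did not overlap in 6 of 8 genes, Sycp1 included, against 69.3% of all genes tested. The median log2 difference was 0.09 for the 8 and 0.02 for all genes.

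Whether the knockdown difference and the overexpression difference were unequal was tested as the first minus the second in the same fit. Over all genes, 31.2% were higher and 20.7% lower by this measure. Piwil2 (1.11, SE 0.11, adjusted p = 1.04e-06) and Nanos1 (0.52, SE 0.11, adjusted p = 0.00116) were higher and Uchl1 (-0.58, SE 0.09, adjusted p = 0.000107) was lower. Relative to its own vector control, Uchl1 was thus lower with the shRNAs and higher with the lncRNA5251 insert, and Piwil2 higher with the shRNAs and lower with the insert. For Piwil2 this depended on the controls: its mean was 3.07 RPKM in KD and 4.00 in OV. Against 5NC, Piwil2 was lower in KD (log2 difference -0.65, adjusted p = 2.47e-06). Foxo1, which fell with the insert and had a value of -0.07 with the shRNAs, did not differ between them at this threshold (0.20, SE 0.11, adjusted p = 0.137), and passed without OV replicate 3 (0.27, adjusted p = 0.0443). For Taf4b, Eomes, Sycp1 and Odf2 the difference was between -0.12 and 0.03, with adjusted p-values of 0.344 to 0.953.

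**Figure D4:**
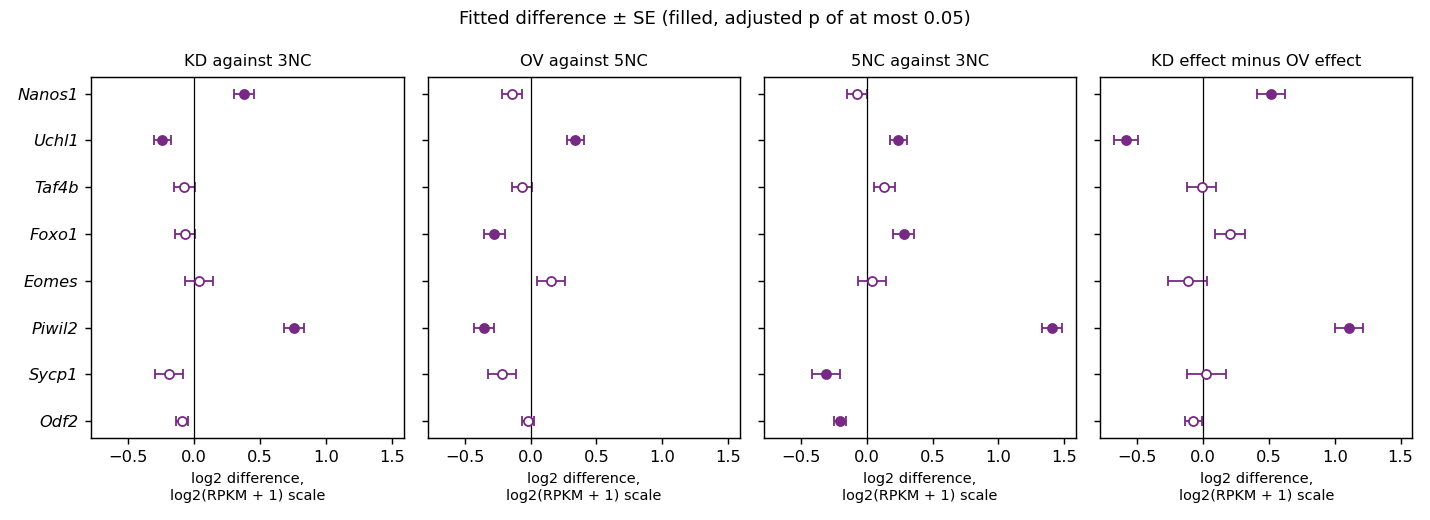
Fitted log2 differences of the 8 germ cell genes on the log2(RPKM + 1) scale in 3 comparisons and between 2 of them (x axis; points, limma estimates; bars, SE; filled points, adjusted p of at most 0.05). Piwil2 lies at 0.76 in KD against 3NC, -0.35 in OV against 5NC and 1.41 in 5NC against 3NC, and Uchl1 at -0.24, 0.34 and 0.24.

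Below 1 RPKM, 4 germ cell genes were above 0 in all 12 libraries: Gdnf, Gfra1, Lhx1 and Sycp3. They stayed out of the main fit and were fitted together with all genes above 0 in any library, with pseudocounts of 1 and of 0.1. Gdnf was at 0.90, 0.77 and 0.70 RPKM in 3NC and 0.42, 0.31 and 0.30 in KD. It was at 0.44, 0.47 and 0.50 RPKM in 5NC and 0.67, 0.60 and 0.72 in OV. Each vector control was thus separate from its partner, in opposite directions.

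The mean of Gdnf was 0.435 times as high in KD as in 3NC, with a log2 difference of -0.41 (adjusted p = 6.95e-05) at a pseudocount of 1 and -1.01 (adjusted p = 0.000275) at 0.1. Against 5NC the mean in KD was 0.73 times as high and Gdnf did not pass, at -0.13 (adjusted p = 0.0507) and -0.37 (adjusted p = 0.069). In OV against 5NC the difference was 0.18 (adjusted p = 0.0455) at a pseudocount of 1 and 0.42 (adjusted p = 0.103) at 0.1, so the call depended on the pseudocount. In 5NC against 3NC it was -0.28 (adjusted p = 0.000933) and -0.64 (adjusted p = 0.00592). The knockdown difference minus the overexpression difference of Gdnf was -0.59 (adjusted p = 9.66e-05) and -1.43 (adjusted p = 0.000373).

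Gfra1 was at 0.09, 0.15 and 0.09 RPKM in 3NC, 0.01, 0.01 and 0.03 in KD, 0.17, 0.15 and 0.12 in 5NC, and 0.16, 0.12 and 0.16 in OV. The KD libraries were the 3 lowest of the 12. Its log2 difference in KD against 3NC was -0.13 (adjusted p = 0.00298) at a pseudocount of 1 and -0.84 (adjusted p = 0.000983) at 0.1, on values rounded to 0.01 RPKM, and the means of OV and 5NC were equal at 0.147 RPKM. The knockdown minus the overexpression difference of Gfra1 was -0.13 (adjusted p = 0.0227) and -0.84 (adjusted p = 0.0102).

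Lhx1 was at 0.32, 0.33 and 0.25 RPKM in 3NC and 0.38, 0.44 and 0.33 in KD, and at 0.11, 0.19 and 0.12 in 5NC and 0.17, 0.21 and 0.12 in OV. It followed the vectors, with every LV3 library above every LV5 library, and of the 3 comparisons only 5NC against 3NC passed (-0.19, adjusted p = 0.00396). Sycp3, the lateral element protein of the synaptonemal complex, was at 0.27, 0.13 and 0.07 RPKM in 3NC, 0.19, 0.39 and 0.60 in KD, 0.35, 0.38 and 0.26 in 5NC, and 0.31, 0.19 and 0.39 in OV. Its groups overlapped in the 3 comparisons and none passed (adjusted p = 0.0633 in KD against 3NC at a pseudocount of 1).

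Of the 23 other genes above 0 and under 1 RPKM, only Tex14 passed an adjusted p of 0.05 in any of the 3 comparisons, in 5NC against 3NC (0.11, adjusted p = 0.04). It was at 0.05, 0.02 and 0 RPKM in 3NC and 0.12, 0.09 and 0.11 in 5NC. Tex14 also differed between the knockdown and the overexpression difference (0.16, adjusted p = 0.0428), as did Piwil4 (0.07, adjusted p = 0.0487), at a pseudocount of 1. None of the other 21 passed in these 4 tests. Of the 23, 15 stayed under 0.1 RPKM in every library, so the lack of calls says little about them. The share of all genes passing in this fit is not given here.

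**Figure D5:**
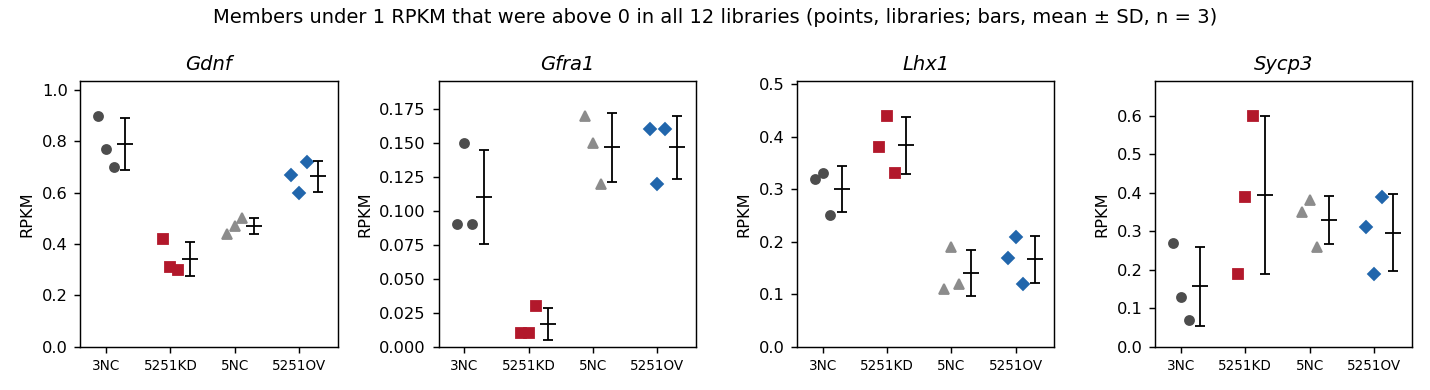
RPKM of Gdnf, Gfra1, Lhx1 and Sycp3, the germ cell genes under 1 RPKM that were above 0 in all 12 libraries (y axis, from 0; points, libraries; bars, mean ± SD, n = 3 per group). Gdnf lies at 0.70 to 0.90 RPKM in 3NC and at 0.30 to 0.42 in KD, and Gfra1 at 0.09 to 0.15 and at 0.01 to 0.03.

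Other genes of the same pathways, with members tested at 1 RPKM or more, moved in both directions. Of 23 GDNF-RET pathway genes, 7 rose, 6 fell and 10 did not pass in KD against 3NC, where Etv5, an ETS factor induced by GDNF in stem cells, fell from 7.81 ± 0.0854 to 2.35 ± 0.157 RPKM (log2 difference -1.40, adjusted p = 2.16e-09), with 5NC also low at 3.10 ± 0.411 RPKM (5NC against 3NC -1.11, adjusted p = 1.8e-08), and the kinase Lyn rose from 2.43 ± 0.331 to 5.34 ± 0.602 RPKM (0.89, adjusted p = 6.29e-06). In OV against 5NC 4 of the 23 rose and 4 fell. Of 15 genes of spermatogonial surface and state, 9 rose, 5 fell and 1 did not pass in KD, with the integrin subunit gene Itgb1 higher and Epha2 lower. In OV 3 of the 15 rose and 5 fell. Etv5 and Id4, which both fell in KD, are counted on this list and on the GDNF-RET pathway list.

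Of 6 germ cell determination and piRNA genes, 3 rose and 2 fell in KD, with Tex19.1, a germline factor that restrains transposons and has a close copy that could share reads, falling from 101 ± 1.46 to 49.9 ± 0.639 RPKM (log2 difference -1.01, adjusted p = 5.66e-10) and 5NC between them at 70.1 ± 5.42 RPKM, while 1 rose and 2 fell in OV. Of 8 other meiotic genes, 2 rose and 1 fell in KD, with the meiotic cohesin subunit gene Stag3 rising from 62.8 ± 2.49 to 83 ± 3.99 RPKM (0.40, adjusted p = 1.05e-05). None of the 8 rose and 2 fell in OV. Of 3 spermatid and sperm genes, 2 rose and 1 fell in KD and none passed in OV. These shares are to be read against the 31.9% higher and 23.5% lower of all genes in KD, and the 8.07% higher and 13.9% lower in OV.

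Markers of mesenchymal cells differed between the groups as well. Of the 10 fibroblast and mesenchymal markers tested, 6 rose and 1 fell in KD against 3NC, 2 rose and 2 fell in OV against 5NC, and 5 rose and 1 fell in 5NC against 3NC, with Fn1 the marker that fell in KD (-1.06, adjusted p = 2.4e-08). Over all genes tested, 31.9% rose and 23.5% fell in KD, 8.07% and 13.9% in OV, and 31.0% and 25.6% in 5NC against 3NC. A few abundant genes, Vim, S100a4 and Col1a1, carry most of their sum. The summed level of the 13 fibroblast and mesenchymal markers with a row was 1199 to 1243 RPKM in 3NC, 1469 to 1534 in KD, 1588 to 1640 in 5NC and 1712 to 1848 in OV, with Postn at up to 0.19 RPKM and Thy1, which is on both lists, at 0.04 RPKM or less. The summed level of the 16 Sertoli cell markers was 100.4 to 101.7 RPKM in 3NC, 104.6 to 110.0 in KD, 110.4 to 112.3 in 5NC and 99.78 to 114.6 in OV. Of the 6 peritubular myoid and smooth muscle markers tested, 4 rose and 1 fell in KD against 3NC. None of the 6 rose and 1 fell in OV against 5NC, and 1 rose and 3 fell in 5NC against 3NC. The part of all these markers in the differences of Piwil2, Uchl1, Nanos1 and Gdnf was not tested.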

How the data were processed

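RNA of C18-4 cells was selected with oligo(dT), sequenced on an Illumina HiSeq instrument and aligned with SOAPaligner 2.20. The authors deposited RPKM values with 2 decimals for 17576 genes in 12 libraries, and the gene set and genome build are not given in the sources used here. The labels call the molecule total RNA. RPKM is relative to the reads mapped in a library, and read totals were not used here.

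Libraries were grouped by their titles, 3 per group. The 11435 genes that reached 1 RPKM in 3 or more libraries were tested on log2(RPKM + 1) with limma 3.58.1 in R 4.3.3, with all 12 libraries in 1 fit, a trend in the variance and Benjamini-Hochberg adjustment over all tested genes. The script was tested on simulated data. The call threshold was an adjusted p of 0.05, and the threshold of the study, an adjusted p of 0.001 with an absolute log2 difference of 1, is given beside it. The exact permutation tests were two-sided.

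The 48 genes and all other lists were chosen with earlier results of these data known. Every one of the 48 with 1 RPKM in 3 libraries is named with all its values, and the others with their highest value. Each further list gives up to 5 genes with the largest passing changes in KD against 3NC, plus up to 3 markers of highest mean. Not every gene that met this rule is named, and the macrophage and leukocyte markers are not described. Defining markers at or near 0 (such as Sox9, Amh, Cyp11a1, Col1a2, Myh11 and Postn), Dok5, Gfra4, Artn, Pspn, Cxcr4, Grb2, Akt1, Itgb1, Cd9, Syce2 and Gata4 are named besides that rule and were chosen after their values were seen. Genes were matched by symbol and Entrez number.

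Alternatives were a pseudocount of 0.1, no filter, quantile normalization, scaling to the same sum, the replicate number as a block, only the libraries compared, each library left out in turn and the other vector control. A pseudocount of 0.1 without a filter was added after seeing the data. Promoters are from RefSeq (GRCm38.p6); 10 of the 48 genes had no entry.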

Additional observations from a re-analysis of the deposited data

Results flagged for a closer look

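The difference in KD against 3NC and that in OV against 5NC were unequal by a test of the difference itself (limma, adjusted over 11435 genes) for 3 germ cell genes. It was 1.11 (SE 0.11, adjusted p = 1.04e-06) for Piwil2, 0.52 (SE 0.11, adjusted p = 0.00116) for Nanos1 and -0.58 (SE 0.09, adjusted p = 0.000107) for Uchl1, on the log2(RPKM + 1) scale. For each of the 3, all 3 libraries of KD lay on 1 side of all 3 libraries of 3NC. In OV against 5NC the libraries of Piwil2 and Uchl1 were separate in the opposite direction, and those of Nanos1 overlapped. The direction of Piwil2 in KD depended on the control, with a log2 difference of 0.76 against 3NC and -0.65 against 5NC.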

How the results depend on the processing

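The number of germ cell genes passing an adjusted p of 0.05 in KD against 3NC was 3, and it was 6 without a filter on low values (Gdnf, Gfra1 and Odf2 added), 5 with a pseudocount of 0.1 and no filter, and 6 with 5NC as the control. At the threshold of the study it was 0, and 1 with a pseudocount of 0.1 (Piwil2) and 2 with that pseudocount and no filter (Gdnf and Piwil2). In 5NC against 3NC it was 5, Sycp1 included, and 8 without a filter. For the knockdown minus the overexpression difference it was 3, and 7 without a filter with either pseudocount. At the threshold of the study it was 1, and 0 after quantile normalization and 2 with a pseudocount of 0.1 and no filter. Without a filter 35 germ cell genes were tested, against 8 with it. The share of all genes passing in these other fits is not given here, so the counts cannot be read as an excess. With 5NC as the control of KD, Piwil2 turned to -0.6482 and Odf2 to 0.1111, and the cause was not tested. Of 464 values of single genes under alternatives, 443 kept their side of the threshold (427 with the same sign and 16, called in neither fit, with the sign turned), 12 lost the call, 7 gained it and 2 reversed.

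With the replicate block, the count was 3 for the knockdown, 3 for the overexpression and 5 for the vector controls, the same as without it. Deviations of same-numbered libraries correlated at -0.178 to 0.176, and those of differently numbered ones at -0.205 to 0.208. No pairing by number was seen, which cannot tell whether same-numbered libraries shared a culture. Leaving out 1 library gave 3 to 4 genes in KD against 3NC, 2 to 4 in OV against 5NC, 4 to 5 in 5NC against 3NC and 3 to 4 for the difference. Foxo1 in OV against 5NC also lost its call after quantile normalization (-0.18, adjusted p = 0.121). The number of germ cell genes at the level limit was 8, and 6 to 9 under other limits or scaling. Values under 0.1 RPKM rest on rounded decimals, which limits Gfra1, Tex14 and Piwil4.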
